A study of Mus musculus with 4 samples.

Results

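The genes described here are 45 genes of mitosis and chromosome segregation, listed by symbol with earlier results of these data known. Through the platform's gene symbols, 44 of them were measured among 19938 genes in all, 43 by 1 probe set and Top2a by 2 that were averaged. Ccnb1 was not analysed here. The samples were macrophages grown from C57BL/6N mouse bone marrow in 10 ng/mL of the growth factor M-CSF and harvested on day 9. Cells called M1 had received interferon-γ at 10 ng/mL for 48 h, and cells called M2 had received interleukin-4 at 20 ng/mL for the same time. Each phenotype was measured with 24 h of vehicle or of interleukin-1α (IL-1α) at 10 ng/mL, which gave 4 groups. Values below are listed in the order vehicle then IL-1α for M1, followed by vehicle then IL-1α for M2. Every group was 1 array, so no value has a replicate. Whether the cells of the 4 arrays came from the same mouse, from several or from a pool is not stated in the labels, nor is the order of polarisation and IL-1α treatment. Macrophages polarised in a dish by 1 cytokine are a simplified model of those in tissue.

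A cell that divides copies its DNA, condenses the copies into chromosomes, attaches each to the spindle through its kinetochores, and separates them before the cytoplasm is cut. Many of the genes for these steps are transcribed in waves late in the cell cycle. In resting cells they are held silent by the DREAM complex, which acts through promoter elements such as the CHR (cell cycle genes homology region). The CCAAT box, a separate promoter element, was counted beside the CHR here. The growth factor M-CSF drives macrophage division. What interferon-γ or interleukin-4 does to division in these cultures was not tested. In a bulk sample the level of such genes follows both the share of cells in division and the amount of RNA per dividing cell, and the arrays cannot tell these apart.

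The values are RMA log2 signals, so a difference of 1 is 2-fold. Signals under 7.62, the median gene value over the 4 arrays, are called under the floor here, since nothing shows that they exceed background. The labels were checked on marker genes. Nos2, Cxcl9, Il12b and Gbp4 read 11.78 to 13.84 on the M1 arrays and 5.86 to 7.13 on the M2 arrays, and Arg1, Retnla and Chil3 read 12.41 to 13.29 on the M2 arrays and 4.91 to 6.75 on the M1 arrays. The macrophage genes Csf1r, Adgre1, Itgam, Cd68, Lyz2 and Sirpa read 12.56 or more on every array. Mertk read 12.46, 12.48, 11.56 and 11.36, and Cx3cr1 lay close to the floor at 7.59 to 7.74. Of the 11 macrophage genes measured, 3 were 2-fold lower in M2 with vehicle (Fcgr1, Aif1 and Cd14), beside 6.83% of genes at the floor. With IL-1α 4 were, beside 6.06%, Mertk (-1.12) being the further one.

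The mitotic genes stood higher in M2 than in M1 macrophages in 43 of 44 cases. With vehicle, the median difference over the 44 measured members was 1.56, against 0.03 over all genes, with quartiles of 1.11 and 2.11. Without a floor, 38 of the 44 members showed an M2 excess of 2-fold or more, where 3.88% of all genes did. With the floor reached on 1 of the arrays compared, 37 of 41 members were 2-fold higher, where 7.03% of such genes were. This last count takes in members that pass only through their M2 signal. With the floor set on the mean of the 4 arrays, the count was 31 of 35, where 6.55% of genes passed. A high M2 signal lifts that mean as well, so this floor does not remove the dependence on M2. No member was 2-fold lower in M2, where 6.83% of genes at the floor were. The difference had 1 array on each side and carries no test of its own.

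**Figure D1:**
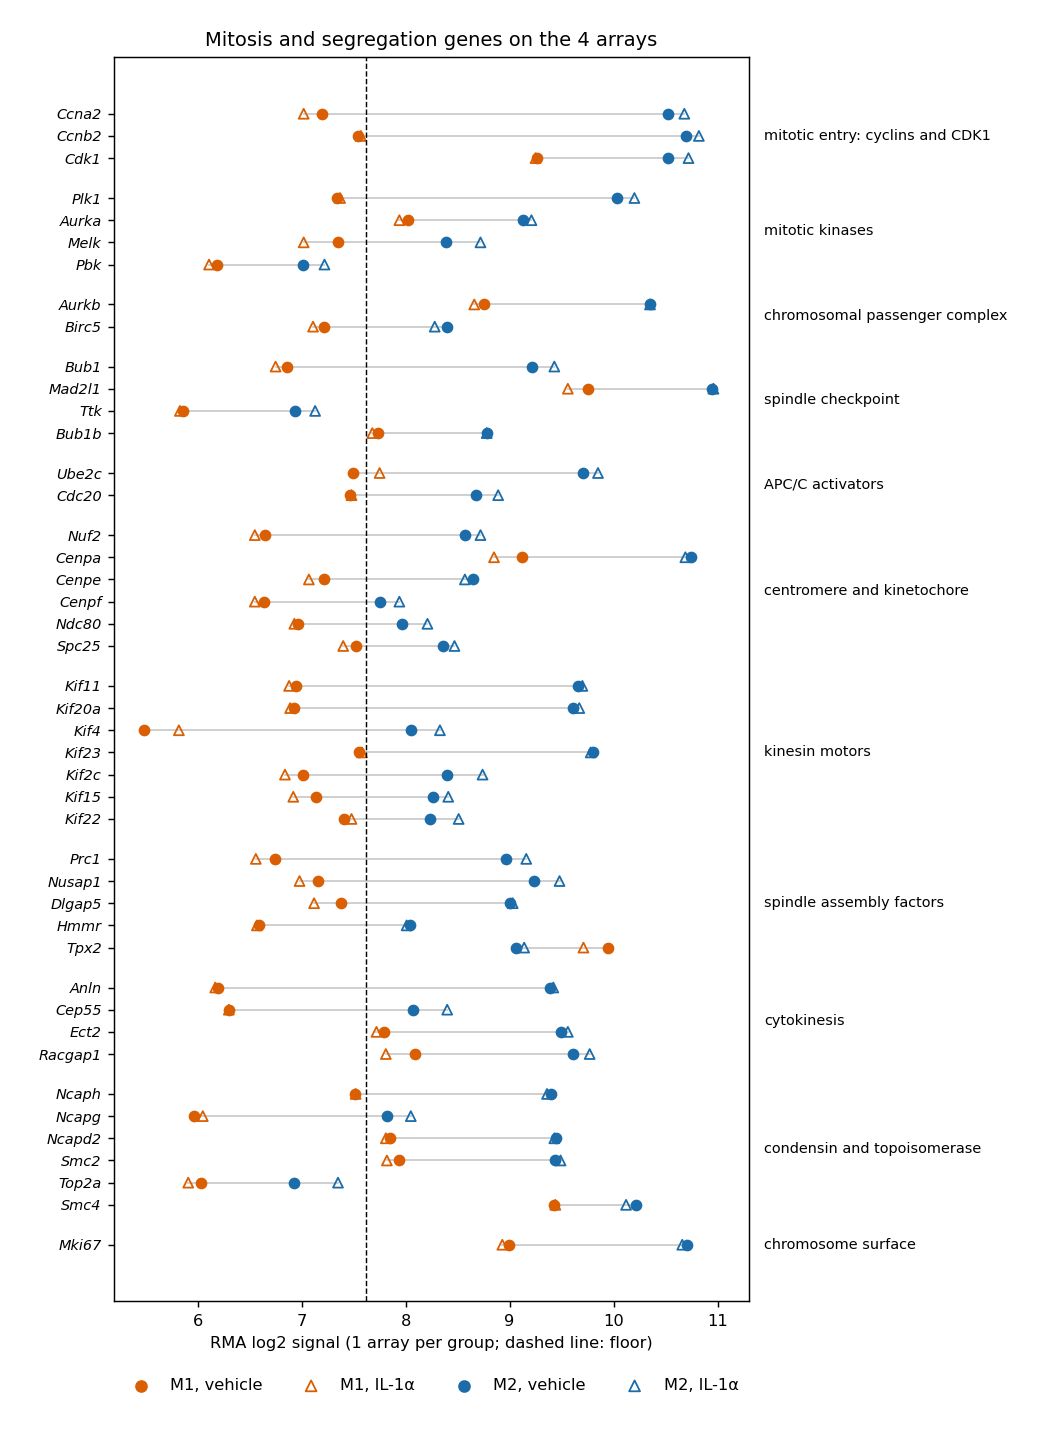
RMA log2 signal of the 44 measured members on the 4 arrays, grouped by role, with M1 in orange, M2 in blue, vehicle as filled circles and IL-1α as open triangles. Each grey line joins the lowest and highest value of a gene and the dashed line is the floor of 7.62. For 43 genes both blue symbols lie to the right of both orange ones, and for Tpx2 they lie to the left.

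Most members crossed the floor between the phenotypes. With vehicle, 31 of the 44 read under it in M1 and 3 read under it in M2, namely Pbk, Ttk and Top2a, and with IL-1α the numbers were 30 and 3. Top2a falls there as the mean of 2 probe sets, and its brighter one was above the floor on every array. RMA compresses differences at dim signals, so the sizes below are uncertain for a member whose M1 value is under 7.62. The 13 members at the floor on every array were Cdk1, Aurka, Aurkb, Bub1b, Mad2l1, Cenpa, Tpx2, Ect2, Racgap1, Ncapd2, Smc2, Smc4 and Mki67. Of these, 11 were at least 2-fold higher in M2 with vehicle, where 4.78% of all genes under the same filter were.

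Among the genes of mitotic entry, both cyclins measured read higher in M2. Ccna2 encodes cyclin A2, which carries the cell from S phase into mitosis, and read 7.20, 7.02, 10.52 and 10.68. Ccnb2 encodes a B-type cyclin that activates CDK1, and read 7.54, 7.57, 10.70 and 10.82 in the same order of arrays. Both M1 values lay under the floor for either gene, and the M2 values lay 3.32 and 3.16 above them with vehicle. Cdk1, the kinase itself, was well above the floor on every array at 9.26, 9.25, 10.52 and 10.72, and its vehicle difference was 1.25. Both M2 values of the kinase lay above both M1 values.

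The mitotic kinases followed. Plk1, which acts on centrosomes, kinetochores and cytokinesis, read 7.34, 7.37, 10.03 and 10.20, a vehicle difference of 2.69. Aurka, the centrosomal Aurora kinase, read 8.02, 7.94, 9.13 and 9.21, all above the floor, with a difference of 1.11. Melk read 7.35, 7.02, 8.39 and 8.72, and Pbk read 6.19, 6.11, 7.01 and 7.22. In each of the 4 genes both M2 arrays lay above both M1 arrays, but Pbk stayed under the floor throughout and its difference of 0.82 did not reach 2-fold. In the chromosomal passenger complex, which corrects faulty spindle attachments, the kinase Aurkb read 8.75, 8.66, 10.35 and 10.35. Its partner Birc5 (survivin) read 7.22, 7.11, 8.40 and 8.28. The vehicle differences of the pair were 1.61 and 1.18.

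The spindle checkpoint delays anaphase until every kinetochore is attached. Its kinase Bub1 read 6.86, 6.75, 9.22 and 9.43, a difference of 2.36 with vehicle. The other 3 genes differed less, and by similar amounts. Mad2l1, whose protein binds and blocks Cdc20, read 9.75, 9.56, 10.95 and 10.96 (1.20). Bub1b read 7.73, 7.68, 8.78 and 8.78 (1.05), and the kinase Ttk read 5.86, 5.83, 6.94 and 7.13 (1.09), under the floor on all arrays. The checkpoint's target is the anaphase-promoting complex (APC/C), a ubiquitin ligase. Its activator Cdc20 read 7.47, 7.48, 8.68 and 8.89, and its ubiquitin-conjugating enzyme Ube2c read 7.49, 7.75, 9.71 and 9.85. The vehicle differences were 1.21 and 2.23.

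At the centromere and kinetochore, all 6 members were higher in M2, with vehicle differences from 0.85 to 1.92. Cenpa, the histone H3 variant that marks centromeres, read 9.12, 8.85, 10.74 and 10.69 and was above the floor on each array (1.62). Of the NDC80 complex, which grips the microtubule, Nuf2 read 6.65, 6.55, 8.57 and 8.72, Ndc80 read 6.97, 6.93, 7.97 and 8.21, and Spc25 read 7.52, 7.40, 8.36 and 8.47. The 3 subunits of this single complex thus differed by 1.92, 1.01 and 0.85 with vehicle. The motor Cenpe and the large kinetochore protein Cenpf differed by 1.43 and 1.11.

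The kinesins, motors that move on microtubules, held several of the largest differences. Kif11, which pushes the spindle poles apart, read 6.95, 6.88, 9.66 and 9.70. Kif20a, needed for cytokinesis, read 6.93, 6.89, 9.61 and 9.67. Kif4, a chromosome-bound motor, read 5.48, 5.82, 8.05 and 8.33. All 3 lay under the floor in M1 and above it in M2, with vehicle differences of 2.71, 2.68 and 2.57. Kif23, the motor of the central spindle, differed by 2.25, the microtubule-depolymerising Kif2c by 1.40, Kif15 by 1.12 and Kif22 by 0.82, which is the only kinesin here under 2-fold with vehicle.

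The spindle assembly factors held the single exception. Prc1, which bundles the midzone microtubules, read 6.74, 6.56, 8.97 and 9.16, and Nusap1 read 7.16, 6.98, 9.23 and 9.48. Dlgap5 and Hmmr differed by 1.61 and 1.45 with vehicle. Tpx2, which activates Aurora A and nucleates spindle microtubules, read 9.95, 9.71, 9.06 and 9.14. It was above the floor on all arrays, and both M2 values lay below both M1 values, with a difference of -0.89 with vehicle and -0.56 with IL-1α. Its kinase partner Aurka differed by 1.11 the other way. Tpx2 rests on 1 probe set, and no second probe set was there to check it.

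In cytokinesis, Anln, which links the contractile ring to actin and septins, read 6.20, 6.17, 9.39 and 9.42, a difference of 3.19 with vehicle. Cep55, an abscission factor, read 6.30, 6.30, 8.07 and 8.40. The exchange factor Ect2 and its activator Racgap1 were above the floor on all arrays. Ect2 read 7.79, 7.72, 9.49 and 9.56 (1.70), and Racgap1 read 8.09, 7.81, 9.61 and 9.77 (1.52). Each of the 4 had an M2 excess of 2-fold or more under either treatment.

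The condensin complex compacts chromosomes, and its subunits Ncaph, Ncapg and Ncapd2 differed by 1.89, 1.85 and 1.60 with vehicle. Smc2, part of the condensin core, read 7.94, 7.82, 9.44 and 9.49. Its partner Smc4 read 9.43, 9.44, 10.22 and 10.12, a difference of 0.79. Ncapd2 read 7.85, 7.81, 9.45 and 9.43. Top2a, the topoisomerase that untangles sister chromatids, read 6.03, 5.91, 6.93 and 7.35 as the mean of 2 probe sets. These disagreed. The brighter one read 8.01, 7.92, 10.00 and 10.24, a difference of 1.99, while the other stayed at 3.85 to 4.46 on the 4 arrays, so the averaged difference of 0.90 is set by a probe set that read near the bottom of the array's range. Mki67, the source of the Ki-67 proliferation antigen, read 8.99, 8.93, 10.71 and 10.66, a difference of 1.72.

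The promoters of the 6 members with a promoter entry and the largest vehicle difference are shown next. A CHR match was no condition of the choice, and one lies near the start of each. Each stretch runs from 100 bases before a RefSeq start to 50 bases after it, 5′ to 3′ on the gene's strand, on GRCm38.p6. Capitals mark CHR matches (TTTGAA or TTCGAA) and CCAAT boxes on either strand, so TTCAAA and ATTGG are the reverse complements. They were picked after the values were seen.
Anln promoter: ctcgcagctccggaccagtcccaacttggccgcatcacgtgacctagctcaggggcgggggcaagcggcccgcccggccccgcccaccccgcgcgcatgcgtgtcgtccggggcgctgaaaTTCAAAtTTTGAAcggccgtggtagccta
Ccnb2 promoter: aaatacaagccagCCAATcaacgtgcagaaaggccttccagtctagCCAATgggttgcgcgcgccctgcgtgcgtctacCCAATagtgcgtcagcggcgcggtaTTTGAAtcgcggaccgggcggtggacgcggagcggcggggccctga
Kif11 promoter: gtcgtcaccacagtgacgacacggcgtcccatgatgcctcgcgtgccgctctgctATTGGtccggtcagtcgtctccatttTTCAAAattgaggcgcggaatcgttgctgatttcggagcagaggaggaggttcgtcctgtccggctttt
Plk1 promoter: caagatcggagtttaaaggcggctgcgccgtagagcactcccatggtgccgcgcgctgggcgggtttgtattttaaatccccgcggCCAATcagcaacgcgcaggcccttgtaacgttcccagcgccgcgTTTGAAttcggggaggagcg
Kif4 promoter: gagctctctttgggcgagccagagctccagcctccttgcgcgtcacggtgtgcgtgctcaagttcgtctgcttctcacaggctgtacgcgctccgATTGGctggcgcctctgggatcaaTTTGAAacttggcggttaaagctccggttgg
Bub1 promoter: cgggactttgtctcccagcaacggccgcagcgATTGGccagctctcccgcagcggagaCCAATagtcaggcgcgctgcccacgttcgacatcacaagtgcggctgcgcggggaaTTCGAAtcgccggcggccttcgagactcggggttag

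The stretches lie at chr9:22389157-22389306 (minus strand), chr9:70421505-70421654 (minus), chr19:37376282-37376431 (plus), chr7:122159335-122159484 (plus), chrX:100625965-100626114 (plus) and chr2:127831810-127831959 (minus), and each spans the annotated first bases of its gene. Anln held 2 CHR matches, 21 and 28 bases after the start, and no CCAAT box. Ccnb2 held CCAAT boxes 87, 54 and 21 bases before the start and a CHR 4 bases after it. Kif11 had a CHR 19 bases before the start, Plk1 30 bases after, Kif4 19 bases after and Bub1, as TTCGAA, 14 bases after.

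Over the whole list, the set of RefSeq promoter windows used here covered 38 of the 45 members. Each window was 300 bases (250 before to 50 after a start). There were 41 windows in all because Prc1, Ect2 and Cep55 had 2 overlapping ones. The members without an entry in that set were Ccna2, Pbk, Aurkb, Dlgap5, Tpx2, Kif20a and Smc4. These include Ccna2, with the largest vehicle difference (3.32), and Tpx2, the only member lower in M2. A CHR on either strand occurred in 33 of the 41 member windows (80.5%) and in 19.2% of all 32851 windows. Counted by gene, 30 of 38 members had one. In the inner 150 bases the figures were 31 of 41 (75.6%) and 8.59%. CCAAT boxes occurred in 29 of 41 windows (70.7%) and in 37.4% of all. Both elements together were in 27 of 41 (65.9%) and in 7.52% of all. No sample enters these counts, and the choice of members did not use them. The CHR was already known as an element of such promoters, so a high share among the members was likely beforehand. Members and motifs were both chosen with earlier results of these data known.

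The matches sat close to the start. The bin from 0 to 24 bases after the start held a CHR in 31.7% of member windows and 1.43% of all windows, and the bin from 75 to 51 bases before the start held a CCAAT box in 31.7% and 6.99%. A further 2 motifs were rare in the member windows, and their positions were not binned. E2F-like sites (TTTGGCGC, TTTCGCGC or GGCGGGAA) were in 3 of 41 windows (7.32%), those of Ncapd2, Kif15 and Cdk1, and in 2.96% of all. TATAAA was in 1 of 41 (2.44%), that of Kif2c, and in 13.6% of all. The members without a CHR in the window were Nuf2, Nusap1, Ncaph, Cenpe, Melk, Mad2l1, Birc5 and Ccnb1. The 7 of them that were measured differed between phenotypes by 1.04 to 2.08 with vehicle (median 1.43), inside the span of the 30 members with one (0.82 to 3.19, median 1.56). A match is a run of letters and not a bound site, and a window without one says nothing of the factors that act on the gene.

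**Figure D2:**
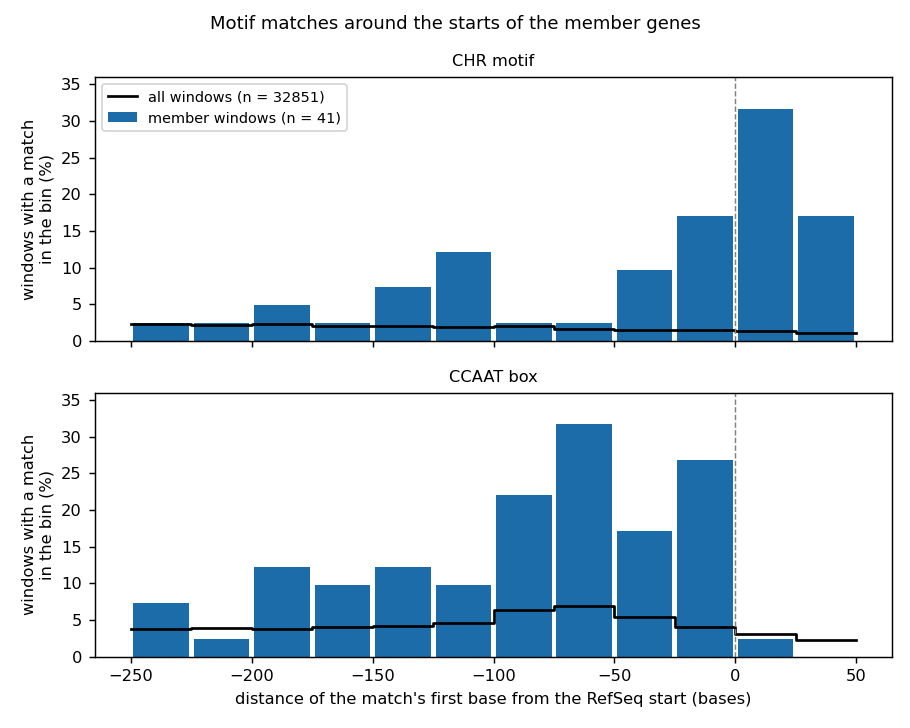
Share of promoter windows with a CHR match (upper panel) or a CCAAT box (lower panel) that starts in each bin of 25 bases, against the distance from the RefSeq start. Bars are the 41 member windows and the black line all 32851 windows. The CHR bars peak at 31.7% just after the start and the CCAAT bars at 31.7% between 75 and 51 bases before it.

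With IL-1α on both sides the phenotype difference was present again, on arrays that the vehicle comparison did not use. The median over the 44 members was 1.72, against -0.03 over all genes. Without a floor, 42 of 44 had an M2 excess of 2-fold or more, where 4.52% of all genes did, and the exceptions were Smc4 at 0.69 and Tpx2 at -0.56. With the floor the count was 39 of 41, where 8.15% of genes were higher, again with members that pass only through M2. With the floor on the mean of the 4 arrays, which a high M2 signal also lifts, it was 33 of 35, where 7.64% of genes passed. No member was among the 6.06% of genes that were 2-fold lower. Melk, Pbk, Spc25, Kif22 and Top2a had larger differences here than with vehicle, at 1.70, 1.11, 1.07, 1.02 and 1.44. The order of the members was much the same under both treatments (Pearson r 0.97 and Spearman rho 0.95 over 44 genes, which share the arrays of each comparison and are not independent). Members past 4-fold numbered 12 with vehicle, where 1.12% of all genes were, and 15 with IL-1α, where 1.29% were.

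**Figure D3:**
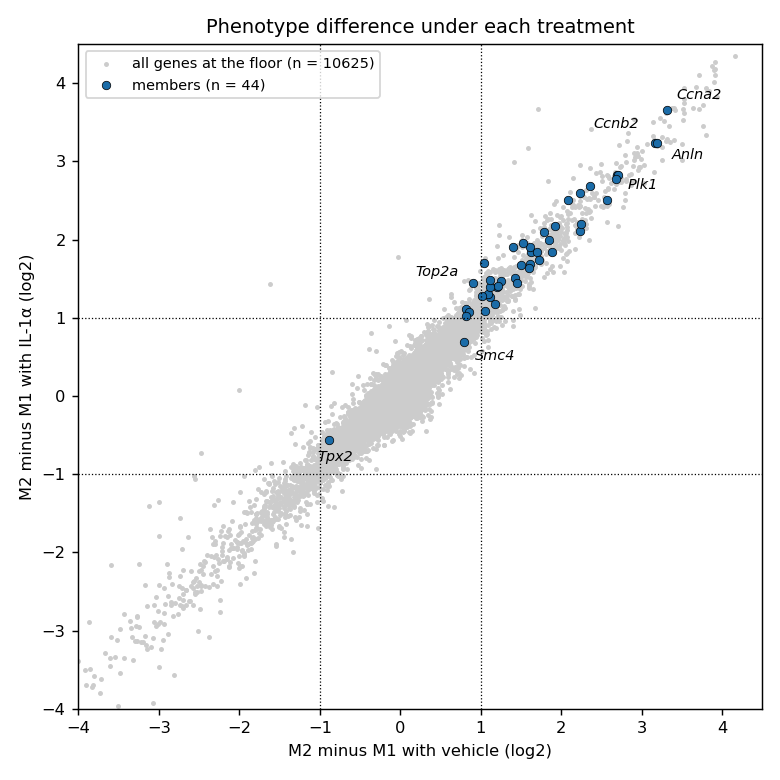
M2 minus M1 difference in log2 units with vehicle (horizontal) and with IL-1α (vertical) for the 44 members in blue and all 10625 genes at the floor in grey, with dotted lines at 2-fold. Axes stop at -4 and 4.5, and grey points beyond are not drawn. The members lie along the diagonal in the upper right, apart from Tpx2 at -0.89 and -0.56.

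Across both treatments, both M2 arrays lay above both M1 arrays in 43 of 44 members, where 32% of all genes showed this, and Tpx2 was the member with both below, as were 31.1% of all genes. The only test the 4 arrays allow is an additive limma model with phenotype and treatment as terms, which sets the phenotype effect against the departure from additivity. It called 40 of the 41 members at the floor higher in M2, where 33.2% of all 10625 genes were called, and Tpx2 lower, where 29.3% were. Most of the 41 reach the floor only through their M2 arrays, which favours such a call. Fitted without a floor, 43 of 44 members were called higher, where 18.7% of all genes were, and 1 lower, where 16.2% were. The effects of the 40 ran from 0.74 (Smc4) to 3.49 (Ccna2), with standard errors of 0.07 to 0.14. The limma adjusted p ran from 2.84e-11 to 1.01e-05. Tpx2 had an effect of -0.73 ± 0.09 (SE; limma adjusted p = 2.97e-05). With 1 residual degree of freedom, the p-values lean on variance borrowed across genes. They measure no spread between cultures or animals, and with 6639 of 10625 genes called in all, a call alone sets no member apart.

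IL-1α minus vehicle was small for the mitotic genes in either phenotype. No member reached 2-fold in M1, where 0% of genes did, or in M2, where 0.35% did. In M1, the members' median response was -0.07 against 0.01 over all genes, and 33 of 44 were below 0, where 46% of all genes were. Among those at the floor in M1, 12 of 14 were below 0, where 50.8% of such genes were. The lowest were Melk (-0.33), Racgap1, Cenpa and Dlgap5 (-0.27 each) and Tpx2 (-0.24), and the highest were Kif4 (0.35), from 5.48 to 5.82 and under the floor on both arrays, and Ube2c (0.26).

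In M2, the median response was 0.13 against 0.01 over all genes, and 33 of 44 members were above 0, where 51.9% of all genes were. That count came to 26 of 44, with a median of 0.07, after a further quantile normalisation. Among genes at the floor the share was near the background, at 30 of 41 members beside 69.3% of such genes. The medians there were 0.11 for the members and 0.05 for all genes at the floor. High responses were those of Kif2c (0.34), Melk (0.33) and Cep55 (0.32), and the lowest was Birc5 (-0.13). Top2a read 0.42 as averaged and 0.24 on its brighter probe set. No replicate gives the spread behind such values. The standard deviation of the M1 response over all genes was 0.12.

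The contrast of responses that the series design names, M2 minus M1, had a median of 0.20 over the members and of 0.00 over all genes. At the floor the medians were 0.18 for the members and 0.06 for all genes. The contrast was above 0 in 37 of 44 members, where 49.7% of all genes were, and in 34 of 41 at the floor, where 66.1% were. No member reached a contrast of 1, where 0.32% of genes at the floor passed 2-fold in either direction. Melk had the largest, at 0.66. Top2a read 0.53 as averaged and 0.33 on its brighter probe set. In the limma model, no member passed for an IL-1α effect averaged over M1 and M2, where 0% of genes did. The smallest limma adjusted p of a member was 0.636, for Kif4, and 2 of 41 members had an unadjusted p under 0.05, where 6.08% of genes had.

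**Figure D4:**
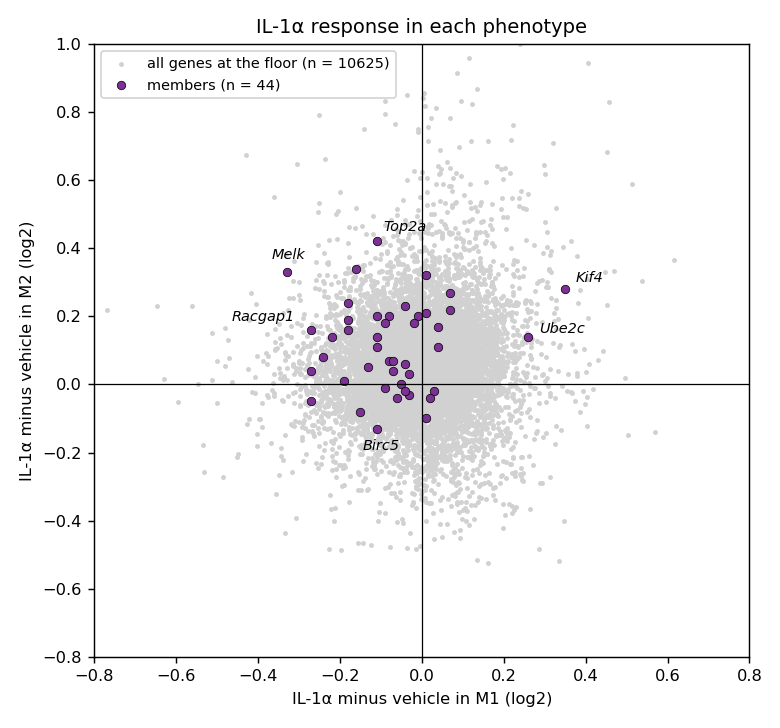
IL-1α minus vehicle in M1 (horizontal) and in M2 (vertical), in log2 units, for the 44 members in purple and all 10625 genes at the floor in grey. Axes stop at 0.8 (M1) and 1 (M2), and grey points beyond are not drawn. The members stay within -0.33 to 0.35 in M1 and within -0.13 to 0.42 in M2, inside the cloud of all genes.

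Other genes of the same machinery were read from lists by function. Of 30 further kinetochore and centromere genes measured, 20 reached the floor on a vehicle array and 7 of these were 2-fold higher in M2, with Knl1 at 2.23, Cenpn at 1.70, Kntc1 at 1.62 and Ska3 at 1.51. Of 22 further spindle and cytokinesis genes at the floor, 7 were higher, led by Cdca3 (2.26) and Ckap2l (1.68). None of these 42 was 2-fold lower. Of all genes at the floor, 7.03% were higher by 2-fold and 6.83% lower. Over all measured genes of these lists the medians were 0.47 and 0.76, below the 1.56 of the members. The limma model called 18 of 21 tested genes of the first list higher in M2 and 1 lower. For the second list it called 19 of 23 higher and 2 lower, beside 33.2% and 29.3% of all genes.

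The remaining cell cycle lists gave mixed results. They are set beside all genes at the floor, of which 7.03% were 2-fold higher with vehicle and 6.83% lower. In the cohesin and separase list of 14 genes at the floor, 2 were higher and 1 was lower. The higher ones were Sgo2a (1.96) and Sgo1 (1.27), which protect centromeric cohesion. The lower one was Pttg1, securin, the inhibitor of separase. It read 10.71, 10.76, 8.91 and 9.20, with both M2 values below both M1 values. The 17 subunits and cofactors of the APC/C, a complex present through the cycle, had a median of 0.05, and 1, the inhibitor Fbxo5 (1.47), was 2-fold higher. Of 13 regulators of mitotic entry and exit at the floor, 5 were higher, among them Cks1b (8.50 and 8.30 in M1, 10.79 and 10.84 in M2) and the wee-type kinase Pkmyt1 (1.09). The 3 remaining condensin subunits had a median of 0.64 and none past 2-fold. In the limma model the higher and lower calls were 8 and 4 of 15 for cohesin and separase, 5 and 3 of 17 for the APC/C, 8 and 2 of 13 for entry and exit, and 3 and 0 of 3 for condensin. Of all genes 33.2% were called higher and 29.3% lower, and the APC/C lay below those shares.

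Among 22 transcription regulators of mitotic genes, all at the floor, 4 were 2-fold higher in M2 and 0 were lower. The shares over all genes at the floor were 7.03% and 6.83%. Myc, a driver of cell growth and division, read 7.12, 6.99, 11.03 and 11.17, a vehicle difference of 3.91. The repressor E2f8 differed by 1.90 and Foxm1, the activator of G2 and M phase genes, by 1.57 (7.07, 7.02, 8.64 and 8.74). The median of that list was 0.30, and limma called 13 higher and 4 lower, beside 33.2% and 29.3% of all genes.

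Several G1 cyclins differed in the other direction. Of 10 G1 cyclin and kinase genes, 3 were 2-fold lower in M2 and 0 were higher. Of all genes at the floor, 6.83% were lower and 7.03% higher. Ccnd2, which encodes cyclin D2, read 11.44, 11.32, 8.16 and 8.48, a difference of -3.28 with vehicle. Ccne1, cyclin E1, differed by -1.40 and Ccnd3, cyclin D3, by -1.34, each with both M2 values below both M1 values. A list drawn up for kinase inhibitors and pocket proteins also held other regulators, Cdkn3, Ccng2 and Gadd45a among them. Of its 16 genes, 4 were higher in M2 (Cdkn2c 1.30, Cdkn3 1.17, Ccng2 1.03 and Gadd45a 1.03) and 0 lower, with a median of 0.01. The limma calls were 5 higher and 4 lower of 10 for the G1 list, beside 33.2% and 29.3% of all genes. For the list of 16 they were 7 higher and 3 lower.

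DNA replication and S-phase genes had the highest median of the other lists. Of 36 at the floor with vehicle, 15 were 2-fold higher in M2 and 0 lower, beside 7.03% and 6.83% of all genes at the floor. Rrm2 differed by 2.43, Dut by 1.98, Pole by 1.84 and Uhrf1 by 1.73. The median over the 41 measured was 0.81, against 1.56 for the mitotic members. The limma model called 33 of 37 higher and 1 lower, beside 33.2% and 29.3% of all genes. The gap between the medians of the lists was not tested.

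**Figure D5:**
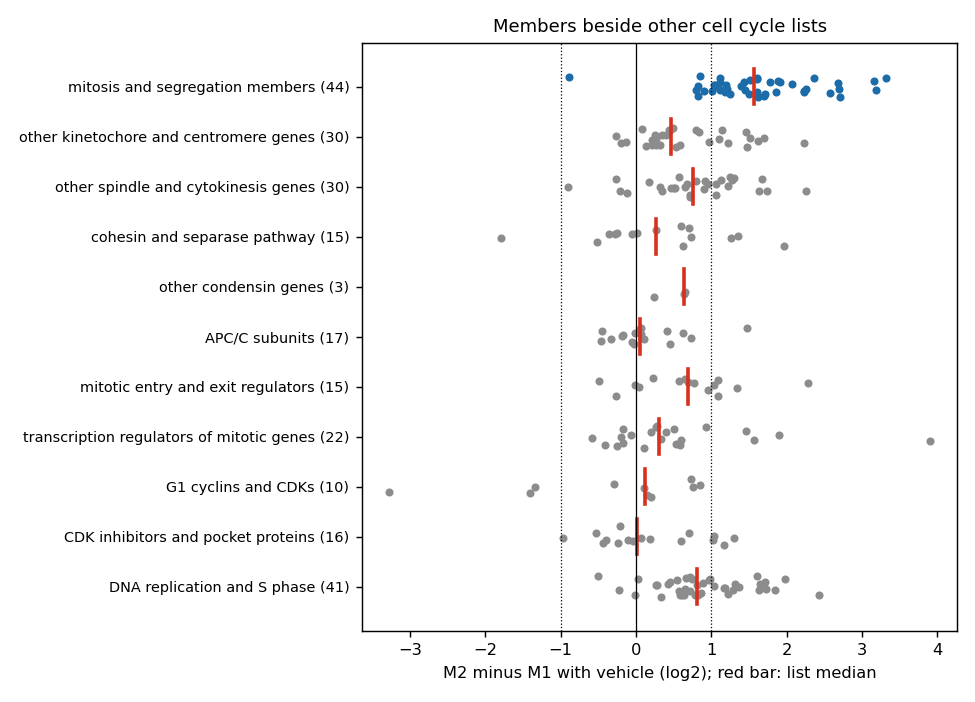
M2 minus M1 difference with vehicle, in log2 units, for each measured gene of the mitotic list (blue) and of the 10 other cell cycle lists (grey), with the number of genes in brackets, a red bar at the list median and dotted lines at 2-fold. The mitotic members have the rightmost median (1.56), and the points far to the left are Pttg1 (-1.79) and the G1 cyclins.

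Markers of other cell types that could bring dividing cells were read beside these values. Of 10 myeloid progenitor markers, only Mpo reached the floor (7.25, 7.31, 7.91 and 7.64), and Elane, Prtn3, Ctsg, Kit, Cd34, Ms4a3, Flt3, Myb and Gfi1 were under it on all arrays. Their summed linear signal was 1019 and 1031 in M1 and 1184 and 1136 in M2. Of 9 lymphocyte markers, Cd4 and Cd79b reached the floor, and Cd3e, Cd3g, Cd8a and Ms4a1 were under it throughout. Neutrophil markers moved with the phenotype. Of 8, 5 reached the floor and 4 were 2-fold higher in M2 with vehicle (Ngp 2.52, Mmp8 1.40, S100a8 1.26 and Ltf 1.12), with a summed signal of 861 and 899 in M1 and 2233 and 2091 in M2, while Ly6g and Camp were under the floor. Osteoclast markers, which multinucleated macrophages share, also moved with it. All 5 of 7 at the floor were higher in M2 (Dcstamp 4.60, Ctsk 3.25, Atp6v0d2 2.32, Ocstamp 1.76 and Acp5 1.44), with a summed signal of 5519 and 5194 in M1 and 25590 and 26206 in M2. Of dendritic cell markers, Itgax (2.98) and Batf3 (1.40) were higher in M2, and Clec9a (-4.35), Xcr1 (-1.96) and Ccr7 (-1.76) lower, with a summed signal of 3958 and 3620 in M1 and 11865 and 11771 in M2. Itgax, which macrophages also express, carries most of that sum, and without it the sum was 2646 and 2288 in M1 and 1531 and 1597 in M2. Of 3 erythroid markers Epor alone reached the floor, on 1 array, and of 7 mast cell and basophil markers Hdc alone. Of 9 fibroblast and endothelial markers 5 reached it, with summed signals of 1963 to 2115 on the 4 arrays. Within that sum, Kdr was lower in M2 with vehicle (-1.33) and Pecam1 higher (0.74). Among all genes at the floor, 7.03% were 2-fold higher in M2 with vehicle and 6.83% lower. The part of any of these cells in the mitotic values was not tested.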

How the data were processed

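RNA of 4 samples was hybridised to single-colour Affymetrix mouse gene arrays, 1 per group, and the source names gave the groups. The authors deposited 1 log2 signal per probe set and array, and the submitters' processing notes name RMA and Affymetrix Expression Console; versions, settings and log base are not stated there, and the range of 3.09 to 14.47 is that of log2. RMA in general removes background and sets the arrays to a common distribution, so a global change in RNA cannot be seen. Probe sets with 1 symbol in GEO's platform annotation were kept (21789 of 35556; 21698 matched RefSeq, assembly GRCm38.p6, by Entrez number), and those of a gene were averaged. A gene counted as higher or lower at 2-fold with at least 1 array compared at the floor. limma 3.58.1 (R 4.3.3; lmFit, eBayes with a trend, prior degrees of freedom 10.05) fitted phenotype and treatment to the 10625 genes at the floor, with a Benjamini-Hochberg threshold of 0.05; the steps were tested on simulated data. Promoter windows are RefSeq's, matched by symbol.

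Any member could be named with its 4 values; of each pathway list, the text could name the 4 genes at the floor with the largest absolute vehicle difference; any marker could be named. Members, lists and motifs were chosen with earlier results of these data known. The number of arrays limits the precision. Results were recomputed with the floor removed or raised to the 75th percentile (9.63), a threshold of 1.5-fold, loess centring, quantile normalisation, each gene's brightest probe set, eBayes without the trend or robust, and inner promoter windows. A floor on the mean of the arrays and protein-coding windows as background were added after seeing the data.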

Additional observations from a re-analysis of the deposited data

Results flagged for a closer look

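The members' median IL-1α response was -0.07 in M1 and 0.13 in M2, opposite in sign on 1 pair of arrays each, and the difference between phenotypes was not tested. A further pair of probe sets, annotated to both Top2a and Hibadh and so left out of the gene values, also read higher in M2 than in M1 with vehicle, by 0.78 and 0.82, and higher with IL-1α in M2 by 0.69 and 0.67, all at signals under the floor.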

How the results depend on the processing

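The member medians of the 5 comparisons kept their sign under loess centring, quantile normalisation and the brightest probe set. Floors and fold thresholds do not enter these medians, so those settings could not move them. With the floor at the 75th percentile, fewer members could be counted. In that setting 11 of 13 were 2-fold higher in M2 with vehicle (7.65% of such genes were). The counts were 13 of 15 with IL-1α (9.3%) and 14 of 15 in the limma model (38.4%). Only 2 members reached that floor in the M1 pair and 14 in the M2 pair. Most thus passed through M2 alone, which favours these counts. At a 1.5-fold threshold, 1 member was lower in M2 with vehicle (Tpx2), and 1 had a larger response in M2 than in M1 (Melk). TATAAA was in 0 of 41 inner promoter windows. In the windows of protein-coding genes the CHR share was 17.6%. Of 271 recomputed values of single members, 2 moved by more than 0.12, both of Top2a, which with its brightest probe set differed by 1.99 with vehicle and 2.32 with IL-1α. The 43 members with 1 probe set could not move under that setting. With the floor at the 75th percentile, limma called 1 gene of 5801 for IL-1α, and it was no member. No paired analysis was possible because each group holds 1 array and the labels give no replicate numbers. Without replicates, a member's difference cannot be set against the spread between cultures, and for members dim in M1 the signal over background limits the size.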

Other observations

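In 7 of 41 member windows (17.1%), those of Aurka, Ccnb1, Ccnb2, Cdk1, Hmmr, Spc25 and Ube2c, 2 CCAAT boxes on the same strand began 31 to 35 bases apart, as they did in 0.922% of all windows. This was noticed after the positions were seen. The member share was above that of all windows at other spacings too, with 12.2% against 0.98% at 41 to 45 bases, 4.88% against 0.758% at 26 to 30, 4.88% against 0.588% at 36 to 40, 4.88% against 0.502% at 46 to 50 and 4.88% against 0.356% at 56 to 60. Of the 41 windows, 19 held 2 or more CCAAT boxes, and no spacing was tested against that number.

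Tpx2 and Pttg1 both read higher in M1 than in M2, and both were above the floor on all 4 arrays. Ccnd2, Ccnd3 and Ccne1 did so as well. Tpx2, at -0.89 with vehicle, did not reach 2-fold, and the others did. These genes were set side by side after their values were seen.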
